A study of Caenorhabditis elegans with 10 samples.

Results

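The enzymes described here carry out glycolysis, gluconeogenesis, the tricarboxylic acid (TCA) cycle and the glyoxylate shunt in the nematode Caenorhabditis elegans. They are 38 genes listed by pathway membership, with no measured value in the rule, out of 46748 genes to which the deposited counts could be assigned. The list holds 3 sugar kinases, 6 enzymes of the upper and 9 of the lower steps of glycolysis, 1 lactate dehydrogenase, 15 TCA cycle enzymes, 1 glyoxylate shunt enzyme and 3 enzymes of gluconeogenesis. RNA of whole worms was sequenced in 10 samples, 5 of the laboratory wild-type strain N2 and 5 of the strain F01D4.5(baf20). All worms had been grown on OP50 bacteria at 20 °C for 48 hours after arrest in the first larval stage (L1), and each sample pooled 1000 to 2000 worms. The labels do not say what the baf20 allele changes in F01D4.5, nor whether it was outcrossed or exists as 1 line.

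Glycolysis splits glucose into pyruvate in the cytosol, and gluconeogenesis runs the same route backwards through a few enzymes of its own that bypass the irreversible steps. The TCA cycle in mitochondria oxidises acetyl-CoA from pyruvate or fatty acids. Worms, unlike mammals, also have a glyoxylate shunt, which skips the steps of the cycle that release carbon dioxide and lets stored fat be turned into sugar, a route known for its use in embryos and starved larvae.

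Each library held 9059910 to 11056979 counts, and the 38 enzyme genes took 0.753% to 0.921% of them. F01D4.5 itself was at 14.3, 11.4, 12, 9.79 and 6.42 CPM (counts scaled to a common library size, so that 3 counts are 0.269 to 0.338 CPM) in N2 and at 2.96, 3.20, 4.02, 3.76 and 2.14 CPM in F01D4.5(baf20), so the strains did not overlap in the gene that names the second one. Libraries also stood apart within the strains. The first principal component of all genes (56.2% of variance) set N2 replicate 5 and F01D4.5(baf20) replicate 5 apart from the other 8 libraries, and the second (16.9%) set F01D4.5(baf20) replicates 1 and 2 apart. Those last 2 differed from each other by a chi-square of 2.21 per degree of freedom, where the other pairs within a strain gave 5.83 to 132. In the libraries numbered 5, epidermal and moulting markers (10 of 12 with counts, dpy-10 and mlt-11 at 0) summed to 728 CPM (N2) and 323 CPM (F01D4.5(baf20)), against 52.7 to 157 and 32.9 to 79.7 CPM in the rest of each strain. Intestinal markers (9 of 10 with counts, opt-2 at 0) summed to 1136 and 1082 CPM there, against 408 to 542 and 314 to 438 CPM. Oocyte markers (10 of 10) were lowest there, at 3354 and 4622 CPM against 5872 to 7956 and 6140 to 9174 CPM.

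The deposited tables count reads per transcript, and this decides which enzymes can be read. Protein-coding genes with 1 row had a median of 4.88 CPM (14393 genes), and those with more rows a median of 0.661 CPM (5257 genes). Of the 38 enzymes, 14 had 1 row and these held 96.2% of all their counts, while 24 had several. The summed rows of the latter are lower limits of the gene's level. Of the 38 genes, 27 had enough counts to be tested, all 14 with 1 row and 13 of those with several. The other 11 are accounted for by their total over the 10 libraries: hexokinase hxk-3 had 41 counts, the aldolases aldo-1 and aldo-2 had 1 and 0, and the glyceraldehyde-3-phosphate dehydrogenases gpd-1 and gpd-3 had 12 and 2. Enolase enol-1 had 1 count, pyruvate kinase pyk-2 had 0, the isocitrate dehydrogenase subunits idhb-1 and idhg-1 had 0 and 71, the succinyl-CoA ligase subunit sucl-2 had 6 and the phosphoenolpyruvate carboxykinase pck-1 had 4. All 11 have more than 1 row, so these totals set no upper limit on how strongly the genes are expressed.

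Levels per kilobase of exon could be compared among the 14 enzymes with 1 row. Citrate synthase cts-1 (chromosome III, 10214771 to 10216635 on WBcel235), which opens the TCA cycle, led with a mean of 1248 CPM per kb, and mdh-2 (chromosome III, 6606544 to 6608106), the mitochondrial malate dehydrogenase that closes it, followed with 1109 CPM per kb. Each stood above the next enzyme in 10 of 10 libraries. Below them came triosephosphate isomerase tpi-1 (429 CPM per kb), dlst-1, the succinyl-transferring subunit of the 2-oxoglutarate dehydrogenase complex (411), and idha-1, a subunit of the NAD-dependent isocitrate dehydrogenase (365). Of these neighbours tpi-1 exceeded dlst-1 in 7 libraries and dlst-1 exceeded idha-1 in 10.

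The middle of the order was crowded. Aconitase aco-1 had 260.0 CPM per kb, phosphoglycerate kinase pgk-1 246, sucg-1 230.3, sucl-1 228 and suca-1 206, and these neighbours were not separated: aco-1 exceeded pgk-1 in 6 libraries of 10, pgk-1 exceeded sucg-1 in 4 and sucg-1 exceeded sucl-1 in 7. Lactate dehydrogenase ldh-1 (151 CPM per kb), the glyceraldehyde-3-phosphate dehydrogenase gpd-4 (90.2), hexokinase hxk-2 (67.7) and phosphofructokinase pfk-1.2 (15.3) closed the list. Among these 14, the only glycolytic enzyme of the 4 highest levels per kb was tpi-1, while the lowest 4 comprised lactate dehydrogenase and 3 glycolytic enzymes. The order holds 1 of 3 sugar kinases, 2 of 6 genes of upper and 2 of 9 of lower glycolysis, and 8 of 15 TCA cycle genes. It therefore does not compare the pathways as wholes.

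**Figure D1:**
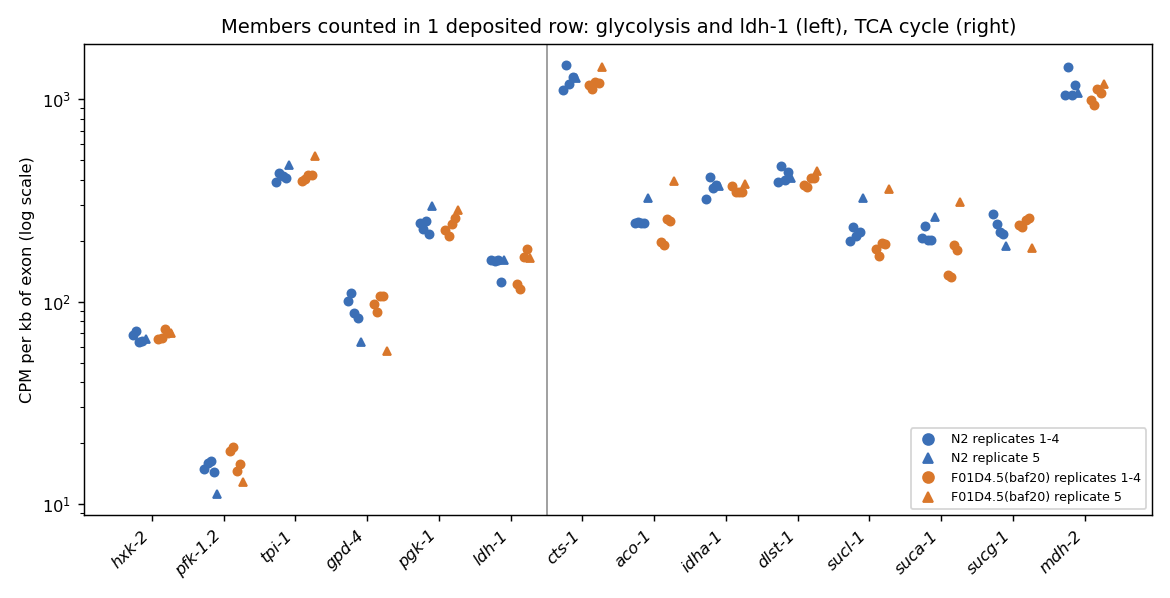
Level of the 14 enzyme genes with 1 deposited row, in CPM per kb of exon on a log axis, 1 point per library (blue N2, orange F01D4.5(baf20), triangles replicate 5). The genes span means from 15.3 CPM per kb for pfk-1.2 to 1248 CPM per kb for cts-1, and the strains overlap at every gene.

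At the entry to glycolysis, hxk-2, which phosphorylates glucose, was the steadiest enzyme. Its level was 134, 141, 124, 127 and 129 CPM in N2 and 129, 131, 145, 138 and 138 CPM in F01D4.5(baf20). The highest library exceeded the lowest by a factor of 1.16, and the gene's biological coefficient of variation in edgeR, 0.144, lay at percentile 0.43 of all genes tested. In edgeR this coefficient is moderated towards a trend over all genes, so it is not the gene's observed spread. The strains overlapped throughout. Its paralog hxk-1, with 2 rows, averaged 23.5 ± 3.83 CPM in N2, against 20.7 ± 3.72 CPM in F01D4.5(baf20) (SD, n = 5). Of the summed hexokinase level per kb, hxk-2 held 85.3% ± 2.28 in N2 and 87.4% ± 1.81 in F01D4.5(baf20) (SD, n = 5), which is an upper limit because hxk-1 and hxk-3 have several rows.

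Phosphofructokinase, the committing step of glycolysis, has 2 genes. The level of pfk-1.2 was 35.8, 38.4, 39.3, 34.6 and 27 CPM in N2 and 44.3, 46.2, 35.1, 38.2 and 31 CPM in F01D4.5(baf20). F01D4.5(baf20) replicates 1 and 2 were the highest libraries and both libraries numbered 5 the lowest. Sperm markers (10 of 11 with counts, gsp-4 at 0) summed to 576 CPM in each of those 2 highest libraries, against 385 to 564 CPM in the other 8; their part in the pfk-1.2 level was not tested. Its paralog pfk-1.1 was at 16.6 to 24.3 CPM in N2, against 17.8 to 22.9 CPM in F01D4.5(baf20), and pfk-1.2 held at most 71.6% ± 1.90 and 74.5% ± 2.49 of their summed level per kb (SD, n = 5). Glucose-6-phosphate isomerase gpi-1, with 4 rows, had only 112 counts over the 10 libraries.

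Triosephosphate isomerase tpi-1, which interconverts the products of aldolase, was at 458, 505, 488, 477 and 554 CPM in N2 and 464, 471, 494, 496 and 613 CPM in F01D4.5(baf20). Both libraries numbered 5 were highest. Phosphoglycerate kinase pgk-1, the first step that makes ATP, had the same order, with 422 and 400.4 CPM in the libraries numbered 5 and 297 to 365 CPM in the other 8. The opposite held for gpd-4, which makes the substrate of pgk-1: its level was 71.2 and 64.7 CPM in the libraries numbered 5 and 93.7 to 125 CPM in the others. Genes of consecutive steps of lower glycolysis, gpd-4 and pgk-1, therefore stood at opposite ends in the same 2 libraries, in both strains. Of the glyceraldehyde-3-phosphate dehydrogenase genes only gpd-4 has 1 row, so the level of that step as a whole could not be read.

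The remaining glycolytic enzymes were read from few counts or from part of their transcripts. Phosphoglycerate mutase ipgm-1 had 315 counts in all, and gpd-2 108. Pyruvate kinase pyk-1, the last step of glycolysis, averaged 22.9 ± 2.86 CPM in N2, against 23.1 ± 2.11 CPM in F01D4.5(baf20) (SD, n = 5). Lactate dehydrogenase ldh-1, which regenerates NAD from pyruvate, was at 185, 182, 184, 143 and 185 CPM in N2 and at 141, 132, 192, 209 and 189 CPM in F01D4.5(baf20). The 3 lowest libraries were F01D4.5(baf20) replicates 1 and 2 and N2 replicate 4, so they belonged to both strains.

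In the TCA cycle, cts-1 was at 1903, 2512, 2028, 2196 and 2175 CPM in N2 and 2001, 1928, 2082, 2053 and 2463 CPM in F01D4.5(baf20). The highest value was in N2 replicate 2 and the lowest in N2 replicate 1. The malate dehydrogenase mdh-2 was at 1374, 1886, 1369, 1549 and 1408 CPM in N2 and 1300.4, 1225, 1468, 1406 and 1558 CPM in F01D4.5(baf20), and N2 replicate 2 was again highest. The same library was highest for idha-1 (603 CPM, 472 to 558 CPM elsewhere) and dlst-1 (765 CPM, 608 to 728 CPM elsewhere). Other enzymes of the cycle, aco-1, sucl-1, suca-1 and ogdh-1, were highest in F01D4.5(baf20) replicate 5. Outside the cycle, pfk-1.1 and gpd-4 were also highest in N2 replicate 2. The share of all genes that were highest in N2 replicate 2 was not computed. Pharynx markers (7 of 8 with counts, myo-1 at 0) were highest in the same library, at 4450 CPM against 3022 to 3688 CPM in the other 9, and their part in these levels was not tested.

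The cycle's enzymes also differed in steadiness. After hxk-2, idha-1 and dlst-1 had the lowest moderated biological coefficients of variation of the tested enzymes. These were 0.151 and 0.152, at percentiles 2.04 and 2.34 of all genes tested. The values for the succinyl-CoA ligase subunits suca-1 and sucl-1 were 0.265 and 0.266, at percentiles 61.2 and 61.7.

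The cytosolic aconitase aco-1 turns citrate into isocitrate. Its level was 696, 698, 690.4, 696 and 923 CPM in N2 and 557, 542, 726, 711 and 1122 CPM in F01D4.5(baf20). N2 replicates 1 to 4 lay between 690.4 and 698 CPM, both libraries numbered 5 stood above the other 8, and F01D4.5(baf20) replicates 1 and 2 stood below them. The higher intestinal and epidermal marker sums given above are in the same libraries numbered 5, and their part in the levels of aco-1 and of the other enzymes that stood apart there was not tested. In bulk RNA of whole worms, more cells of a type and more RNA per cell cannot be told apart.

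The succinyl-CoA ligase, which makes ATP or GTP from succinyl-CoA, pairs the alpha subunit sucl-1 with either of the beta subunits suca-1 (ATP-forming) and sucg-1 (GTP-forming), and all of these have 1 row. The level of suca-1 (chromosome X, 10897678 to 10900114) was 344, 392, 334, 336 and 437 CPM in N2 and 226, 220.0, 317, 301 and 516 CPM in F01D4.5(baf20). The level of sucg-1 (chromosome IV, 7728913 to 7730650) was 388, 346, 318, 308 and 270.3 CPM in N2 and 342, 334, 361, 370.0 and 265 CPM in F01D4.5(baf20). The libraries numbered 5 were the 2 highest for suca-1 and the 2 lowest for sucg-1, in both strains.

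The ratio of suca-1 to sucg-1 per kb followed from these levels. It was 0.765, 0.978, 0.907, 0.937 and 1.39 in N2 and 0.570, 0.567, 0.757, 0.700 and 1.68 in F01D4.5(baf20). Per kb, the ATP-forming subunit exceeded the GTP-forming one only in the libraries numbered 5. In counts not divided by length it also did so in N2 replicates 2, 3 and 4, at ratios of 1.14, 1.05 and 1.09. Over all 5 the strains overlapped, and suca-1 held 49.4% ± 5.43 of the summed beta level per kb in N2 and 43.9% ± 10.9 in F01D4.5(baf20) (SD, n = 5). The alpha subunit sucl-1 was likewise highest in the libraries numbered 5, with 401 and 445 CPM there and 209 to 291 CPM in the other 8.

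**Figure D2:**
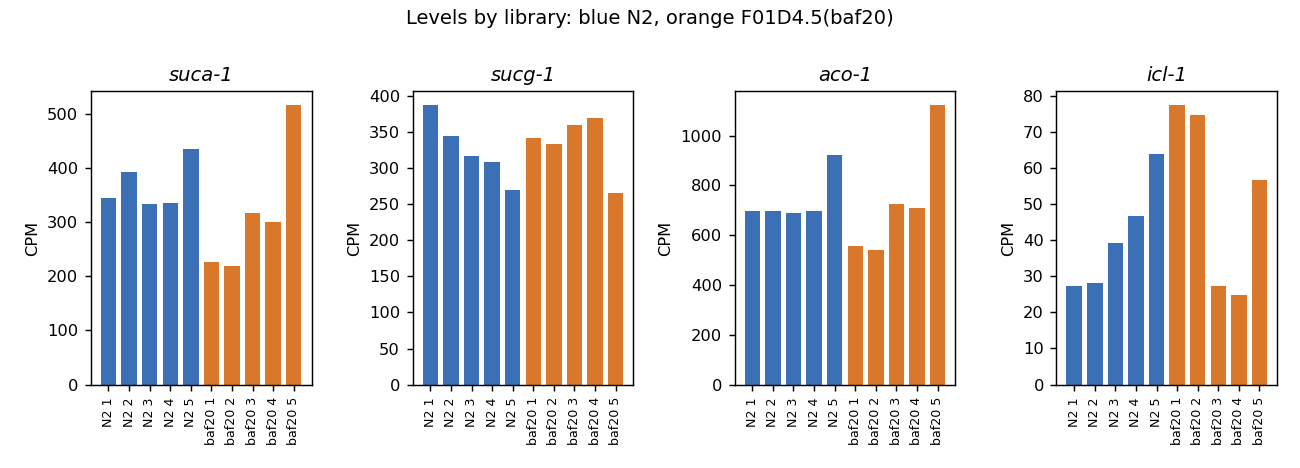
CPM in each of the 10 libraries (1 bar per library, axes from 0) for suca-1, sucg-1, aco-1 and icl-1, blue for N2 and orange for F01D4.5(baf20). The libraries numbered 5 are highest for suca-1 and aco-1 and lowest for sucg-1, and icl-1 is highest in F01D4.5(baf20) replicates 1 and 2, at 77.4 and 74.9 CPM.

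Other enzymes of the cycle had several rows and lower counts. The E1 subunit of the 2-oxoglutarate dehydrogenase complex, ogdh-1, averaged 43.6 ± 5.62 CPM in N2, against 50.3 ± 9.58 CPM in F01D4.5(baf20), and fumarase fum-1 had 28.0 ± 3.90 and 28.4 ± 2.87 CPM (SD, n = 5). The cytosolic malate dehydrogenase mdh-1 was at 32.3, 25.1, 40.3, 24.4 and 49.6 CPM in N2 and 44.2, 42, 36.8, 43.6 and 44 CPM in F01D4.5(baf20). N2 spread over a wider range than F01D4.5(baf20) and contained it. Against mdh-2 it made up 2.60% ± 0.993 of the summed malate dehydrogenase level per kb in N2 and 3.36% ± 0.418 in F01D4.5(baf20) (SD, n = 5), which are lower limits because mdh-1 has 3 rows.

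The glyoxylate shunt is represented by icl-1 (chromosome V, 724332 to 728004), which joins isocitrate lyase and malate synthase in 1 protein. It has 2 rows, and the gluconeogenesis genes pck-2 and fbp-1 have 12 and 3. The levels of these genes are therefore lower limits, read from part of their transcripts. The level of icl-1 was 27.4, 28.2, 39.3, 46.7 and 63.9 CPM in N2 and 77.4, 74.9, 27.3, 24.9 and 56.7 CPM in F01D4.5(baf20). F01D4.5(baf20) held both the 2 highest and the 2 lowest libraries, and the lowest and highest values differed by a factor of 3.11. Its biological coefficient of variation was 0.412, at percentile 86.6 of all genes tested. The row C05E4.9b held 96.5% of the icl-1 counts. In the annotation used here, that transcript has 2 stretches, of 6 and 52 exon bases, not shared with the other. The spread of icl-1 between libraries is thus also read from part of its transcripts and may differ from that of the whole gene. In gluconeogenesis, the carboxykinase pck-2, which makes phosphoenolpyruvate, was at 7.88 to 12.2 CPM in N2, against 7.80 to 12.7 CPM in F01D4.5(baf20), with both libraries numbered 5 highest. Fructose-1,6-bisphosphatase fbp-1, the reverse of phosphofructokinase, was at 3.45 to 5.80 and 2.35 to 6.65 CPM.

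Across the 27 tested enzymes, the libraries that stood apart in all genes were also apart here. In the libraries numbered 5, 6 enzymes (tpi-1, pgk-1, aco-1, sucl-1, suca-1 and pck-2; 22.2%) lay above all other 8 libraries and 3 (pfk-1.2, gpd-4 and sucg-1; 11.1%) below, against 23.2% and 19.2% of all genes tested. In F01D4.5(baf20) replicates 1 and 2, 2 enzymes (pfk-1.2 and icl-1; 7.41%) lay above the other 8 libraries and 6 (ldh-1, aco-1, dlst-1, sucl-1, suca-1 and mdh-2; 22.2%) below, against 12.15% and 8.94% of all genes. The sum of the intestinal markers was also lowest in those 2 libraries, at 314 and 326 CPM against 401 to 1136 CPM in the other 8. Their mean log2 CPM was hardly set apart, at 4.416 and 4.428 against 4.432 in F01D4.5(baf20) replicate 4. The part of these markers in the enzyme levels was not tested. The counts of enzymes above or below describe the libraries and were not tested.

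**Figure D3:**
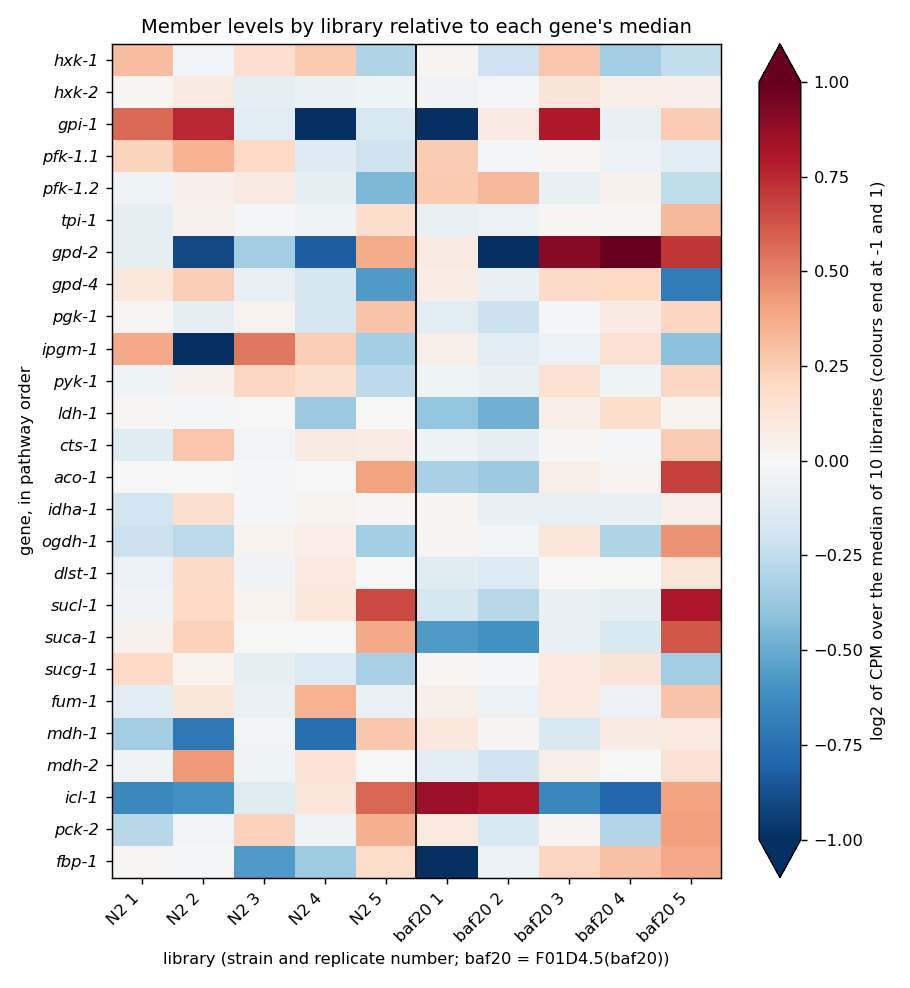
Level of 26 of the 27 tested enzymes (rows, in pathway order) in each of the 10 libraries (columns), as log2 of CPM over the gene's median, with colours ending at -1 and 1. In the columns numbered 5, aco-1, sucl-1 and suca-1 are red and gpd-4 and sucg-1 blue in both strains; gpi-1, gpd-2 and ipgm-1 have few counts.

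Between the strains no enzyme passed the test. With edgeR's quasi-likelihood test and a Benjamini-Hochberg adjusted p under 0.05, 0 of 27 enzymes were called, where 0.0649% of the 12332 genes tested were called (8 genes, 0.0324% in each direction). At an unadjusted p under 0.05 the count was also 0 of 27, against 5.76% of all genes. DESeq2 called 0 enzymes, against 0.214% of the genes to which it gave an adjusted p (32 genes). No enzyme had strains that did not overlap, where 0.795% of genes were entirely higher and 0.649% entirely lower in F01D4.5(baf20). The log2 fold changes, F01D4.5(baf20) over N2, were positive for 13 enzymes and negative for 14, with a median of -0.02 beside 0.02 for all genes tested.

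By step, the enzymes of the TCA cycle had positive log2 fold changes in 4 of 12 cases and a median of -0.04, and none was called. Upper glycolysis had 3 of 4 positive with a median of 0.03, and lower glycolysis 3 of 5 with a median of 0.01. Among the 14 enzymes with 1 row, the estimates ran from -0.22 for suca-1 to 0.15 for pfk-1.2, with 95% intervals that reached from 0.616-fold to 1.39-fold at their widest. For hxk-2 the interval was 0.923-fold to 1.17-fold, for cts-1 0.831-fold to 1.14-fold, and for mdh-2 0.770-fold to 1.09-fold.

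**Figure D4:**
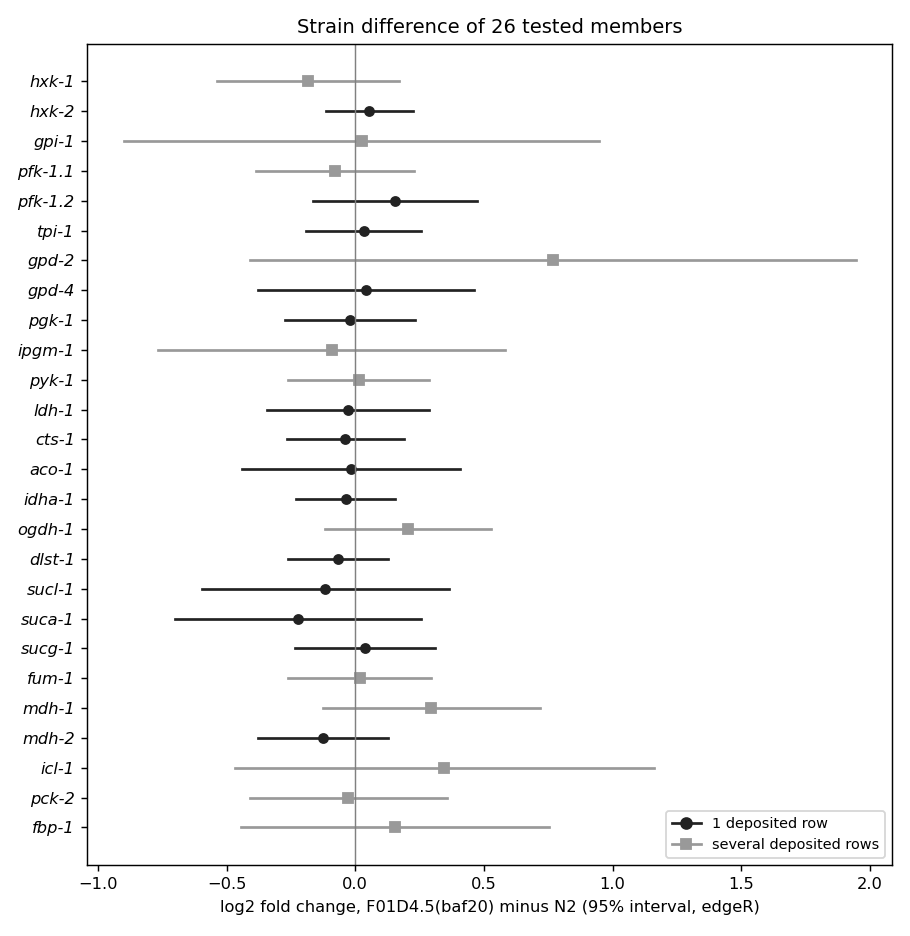
Log2 fold change of F01D4.5(baf20) minus N2 with its 95% interval from edgeR for 26 of the 27 tested enzymes, black circles for genes with 1 deposited row and grey squares for genes with several. Every interval includes 0, from hxk-2 with the narrowest to gpd-2 with the widest.

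Of the enzymes with the smallest unadjusted p, mdh-1 had a log2 fold change of 0.30 (SE 0.192, unadjusted p = 0.152), gpd-2 of 0.77 (SE 0.535), the latter on its 108 counts, ogdh-1 of 0.21 (SE 0.147) and hxk-1 of -0.18 (SE 0.161). The log2 fold changes of mdh-2, pfk-1.2, suca-1, icl-1 and dlst-1 were -0.12, 0.15, -0.22, 0.35 and -0.07. The edgeR adjusted p of these 9 genes ran from 0.900 to 0.939.

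The strain estimates of single enzymes varied with the libraries that stood apart. Without both libraries numbered 5, 4 of 26 enzymes had an unadjusted p under 0.05 in edgeR, where 15.4% of all genes did. Among them were suca-1 at -0.40, sucl-1 at -0.23 and mdh-1 at 0.45 on the log2 scale, with edgeR adjusted p of 0.200 to 0.230. Without F01D4.5(baf20) replicates 1 and 2, the estimates of suca-1, pfk-1.2 and icl-1 changed sign, to 0.03, -0.01 and -0.18. Single libraries moved the estimates as well. That of mdh-2 was -0.03 without N2 replicate 2, and that of dlst-1 ranged from -0.03 in the same case to -0.11 without F01D4.5(baf20) replicate 5. For pfk-1.2 it was 0.07 without N2 replicate 5, 0.09 without F01D4.5(baf20) replicate 1 and 0.08 without replicate 2. For suca-1 it was -0.14 without F01D4.5(baf20) replicate 1, -0.12 without replicate 2 and -0.47 without replicate 5. For icl-1 it ranged from 0.14 without F01D4.5(baf20) replicate 1 to 0.56 without N2 replicate 5. For mdh-1 it ranged from 0.19 without N2 replicate 4 to 0.47 without N2 replicate 5. That of ogdh-1 was 0.09 without F01D4.5(baf20) replicate 5, that of gpd-2 0.48 without replicate 4, and that of hxk-1 -0.29 without replicate 3. No enzyme was called in any of these cases.

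The deposited rows were also tested one by one, a comparison chosen after seeing the data. Of 34 enzyme rows, 0 were called by edgeR, against 0.0628% of the 12739 rows tested, and 2 had an unadjusted p under 0.05, against 5.90%. The median log2 fold change of the enzyme rows was 0.01.

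Other genes of central carbon metabolism gave the surroundings of these enzymes. Of 45 genes for pyruvate entry, succinate dehydrogenase, further TCA enzymes, glucose entry and its regulators, glycogen, trehalose and the pentose phosphate pathway, 33 were tested and 0 were called by edgeR. At an unadjusted p under 0.05 in edgeR, 3 of the 33 were higher and 2 lower in F01D4.5(baf20), larger shares than the 3.52% and 2.24% of all genes. In 2 of the 33 all F01D4.5(baf20) libraries lay above all N2 libraries, also a larger share than the 0.795% of all genes given above. These shares were not tested. Pyruvate dehydrogenase kinase pdhk-2, which switches off the entry of pyruvate into the TCA cycle, was at 121 to 147 CPM in N2, against 148 to 219 CPM in the F01D4.5(baf20) libraries (an estimate of 0.38 on the log2 scale, SE 0.131, unadjusted p = 0.0147, edgeR adjusted p = 0.770). The highest values, 219 and 212 CPM, were in F01D4.5(baf20) replicates 1 and 2, and without them the pdhk-2 estimate was 0.16. Glycogen synthase gsy-1 was at 274 to 355 and 359 to 410 CPM (0.20, SE 0.0927, edgeR adjusted p = 0.862).

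Of the trehalases, which split the disaccharide trehalose into glucose, tre-1 had a log2 fold change of 0.35 (SE 0.123), tre-2 of -0.32 (SE 0.141) and tre-5 of 0.46 (SE 0.235). Both tre-1 and tre-5 were highest in F01D4.5(baf20) replicates 1 and 2, and without these libraries their estimates were 0.16 and 0.15, and that of tre-2 was -0.21. Without replicate 1 alone tre-5 was at 0.31. The ribose-5-phosphate isomerase rpia-1 had -0.59 (SE 0.241), on 366 counts, and the pyruvate dehydrogenase subunit pdha-1 had -0.38 (SE 0.190), on 430 counts. As tre-2, rpia-1 and pdha-1 have 3, 2 and 4 rows, their estimates are read from part of their transcripts. The bifunctional enzyme pfkb-1.2, which sets the level of the phosphofructokinase activator fructose-2,6-bisphosphate, had 0.24 (SE 0.106). The edgeR adjusted p of these 6 genes lay between 0.778 and 0.888. All 5 tested genes of the pentose phosphate pathway had negative estimates, with a median of -0.19. Those of T25B9.9 (-0.0014, SE 0.168) and gspd-1 (-0.034, SE 0.151) were close to 0, and Y57G11C.3 had 159 counts. Of this pathway, rpia-1, tald-1 and Y57G11C.3 have several rows. In F01D4.5(baf20) replicates 1 and 2, gspd-1, tald-1 and T25B9.9 lay below all other libraries, as did 8.94% of all genes tested. So did pdhb-1, dlat-1, dld-1 and mpc-1 of pyruvate entry, and vhl-1, tre-2 and tre-4. In the same 2 libraries pdhk-2, aak-1, tps-2, tre-1 and tre-5 lay above all others, as did 12.15% of all genes. Glycogen and trehalose genes had 6 of 10 positive and genes of glucose entry and its regulation 4 of 6. None of these groups held a called gene.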

How the data were processed

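Per the submitters' processing notes, the authors used CASAVA, HISAT2, HTSeq and DESeq2 with the builds ce10 and ce11; versions, roles and the strand setting are not given in the sources used here. Per the labels, extraction used QIAzol and the miRNeasy Mini Kit, and libraries were made with the TruSeq Stranded mRNA kit. The authors deposited whole-number counts per transcript row, not normalized, in 57827 rows per sample. Names of 57515 rows (99.78% of counts) matched the Ensembl release 115 annotation of WBcel235 and were summed to 46748 genes. In the sum, reads that the counting gave to no single row are missing. The other 312 rows (0.223% of counts) were assigned to no gene and not tested. No row was a counter summary line such as a total of reads outside genes.

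The strain comparison used edgeR 4.0.16 under R 4.3.3 (TMM scaling, filterByExpr with a minimum count of 10 and a minimum total of 15, robust quasi-likelihood fit, strain as the only term, 2-sided, Benjamini-Hochberg adjustment over 12332 genes, threshold 0.05). The script was tested on simulated data. CPM are counts over the TMM-scaled library size, and CPM per kb divide by merged exon length. Totals of 9059910 to 11056979 counts make 3 counts equal to 0.269 to 0.338 CPM, a limit that covers counting error alone. The design text calls the samples biological replicates. Members, gene lists and tests were chosen with earlier results of these data known. The values of 1 tested enzyme are not reported here. Fold changes are printed for the enzymes (up to 10) and the 8 other genes with the smallest p, and for genes whose strains do not overlap. Those of gspd-1 and T25B9.9 are printed as well. Alternatives were other scalings, filters, DESeq2 1.42.0, a replicate block, libraries left out or summed, 1 row per gene, genes removed and, chosen after seeing the data, rows as deposited.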

Additional observations from a re-analysis of the deposited data

Results flagged for a closer look

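In 6 of 54 groups of 5 libraries, 1 enzyme level lay far from the other 4 by Dixon's criterion (0.71 for 5 samples). Chance gives about 1 in 20 groups, and the levels of different enzymes in 1 library are not independent. The share over all genes was not computed, so the count does not set these enzymes apart from other genes. Of the 6 values, 5 were in the libraries numbered 5. In F01D4.5(baf20) replicate 5, tpi-1 was at 613 CPM (the others 463.8 to 496.3), cts-1 at 2463 CPM (1928 to 2082) and sucl-1 at 445 CPM (209.3 to 240.6). In N2 replicate 5, aco-1 was at 923 CPM (690.4 to 697.6) and sucl-1 at 401 CPM (247.4 to 290.6). In N2 replicate 4, ldh-1 was at 143 CPM (182.4 to 185.5).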

How the results depend on the processing

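The number of enzymes called was 0 under every alternative run, and that of the other carbon metabolism genes was 0 under the alternatives run for them, which did not include rows as deposited, while calls over all genes ran from 2 to 32. Deviations of same-numbered libraries from their strain means correlated at 0.15, 0.15, 0.0019 and -0.13 for replicates 1 to 4. N2 replicate 1 correlated best with F01D4.5(baf20) replicate 3. The strain means include the libraries numbered 5, so these values cannot show whether same-numbered samples were prepared together. The labels give no batch. The libraries numbered 5 correlated with each other at 0.82, the highest of all pairs between the strains. With the replicate block, 0 enzymes were called, their median log2 fold change was -0.02 and 6 genes were called in all. The count of enzymes at an unadjusted p under 0.05, 0 as reported, was 1 with DESeq2 (idhg-1; 3.76% of all genes), 1 with no filter on low counts (idhg-1; 4.45%), 1 with the row with most counts per gene (5.73%), 2 with rows as deposited, 4 without both libraries numbered 5 and 1 without F01D4.5(baf20) replicates 1 and 2 (gpd-2; 3.21%). Leaving out 1 library at a time gave 0 to 2: 2, with mdh-1 among them, without N2 replicate 5 (6.95% of genes), gpd-2 without F01D4.5(baf20) replicate 2 (3.77%), and sucl-1 and suca-1 without F01D4.5(baf20) replicate 5 (16.4%); the cause was not tested. Without F01D4.5(baf20) replicates 1 and 2, the log2 fold changes of pfk-1.2 (-0.0096), suca-1 (0.034) and icl-1 (-0.18) changed sign. With the row with most counts per gene, the share of hxk-2 in the summed hexokinase level in N2 was 87.6%, since its paralogs with several rows then lose counts. In the order of levels per kb, aco-1, pgk-1, sucg-1 and sucl-1 changed places when libraries were left out. Low counts limit gpd-2, gpi-1 and ipgm-1, and the 11 untested genes.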
